A study of Mus musculus with 17 samples.

Results

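Synaptojanin and intersectin are proteins of synaptic vesicle recycling whose genes, Synj1 and Itsn1, lie in the chromosome 16 segment that Dp16 mice carry in 3 copies. They were described with 7 partners encoded elsewhere: Itsn2, Synj2, Dnm1, Sh3gl2, Amph, Bin1 and Eps15. The 9 genes were picked by name from the 55385 genes of the count and RPKM tables, each name matched 1 row, and all 9 passed the filter on low counts that left 18983 genes for testing. Polyadenylated RNA of whole hippocampus was sequenced from 17 untreated mice aged 17.1 to 18.0 weeks, 1 library per mouse. The Dp16_2xIFNRs group (n = 5, 3 females and 2 males) carries the Dp16 duplication with the interferon receptor genes brought back to normal dosage. The Dp16 group (n = 6, 3 females and 3 males) carries the duplication alone, and the WT group (n = 6, 3 females and 3 males) is wild-type C57BL/6J. The labels name no transgene and no Cre driver, and the duplication is present in every cell of the animal, together with the other genes of the segment. No agent was given to any group.

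Clathrin-mediated endocytosis retrieves synaptic vesicle membrane after transmitter release. Adaptors and scaffolds such as Eps15 and the intersectins gather clathrin at membrane rich in the lipid PI(4,5)P2, curved-membrane proteins such as endophilin and the amphiphysins shape the neck, and dynamin cuts it. Synaptojanin then removes phosphates from the lipid so that the coat can be shed. Intersectin binds dynamin, synaptojanin and Eps15, and endophilin brings synaptojanin to the bud, so the 9 products work in one physical network.

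Both triplicated members were higher in the duplication mice, and the partners were not called. Synj1 was 1.62-fold higher in Dp16_2xIFNRs than in WT hippocampus and 1.65-fold higher in Dp16 than in WT. Itsn1 was 1.47-fold and 1.44-fold higher in the same comparisons. Neither gene was called between Dp16_2xIFNRs and Dp16. EdgeR called 2 of the 9 members in Dp16_2xIFNRs against WT, where it called 0.980% of all tested genes. It also called 2 of 9 in Dp16 against WT, where it called 0.537% of all tested genes. Within the triplicated segment alone these shares were 54.1% and 50.8%, so 2 of 2 triplicated members stand on a background of about 1 segment gene in every 2. In Dp16_2xIFNRs against Dp16 edgeR called 0 of 9, where it called 0.0158% of all tested genes and 2.46% of segment genes. Those calls were the 3 interferon receptor genes Ifngr2, Ifnar1 and Ifnar2, whose dosage differs between these groups. Before adjustment 0 of 9 had a p under 0.05 there, where 6.99% of genes outside the segment were higher and 3.44% lower at that p. DESeq2 and limma-voom also called 0 of 9. In whole tissue, fewer cells of a type and less RNA per cell cannot be told apart.

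Library totals were 30.7 to 31.6 megacounts in Dp16_2xIFNRs, 30.4 to 33.1 megacounts in Dp16 and 30.4 to 32.9 megacounts in WT. Marker lists for hippocampal fields, excitatory neurons and inhibitory neurons were detected in all 17 libraries, with 0 of 17 markers of these lists at 0 in any library. In 1 library of each group (Dp16_2xIFNRs replicate 5, Dp16 replicate 6 and WT replicate 6) the choroid plexus markers were nearly absent. Their mean log2 CPM there was 1.23, 0.68 and 0.63, against 5.08 or more in the other libraries. WT replicate 4 held more thalamus marker RNA, 353 CPM summed over 5 genes against 62.3 to 121 CPM elsewhere. Of the receptor genes that separate the duplication groups, 0 of 4 were called by edgeR in Dp16_2xIFNRs against WT (1 at an unadjusted p under 0.05), and 4 of 4 were called higher in Dp16 against WT. Without WT replicate 2, edgeR called Ifnar1 in Dp16_2xIFNRs against WT (adjusted p = 0.0434). In Dp16 against WT the edgeR call of Il10rb was lost without Dp16 replicate 5 (adjusted p = 0.0518) and with the identifier series, a part of the mouse identifiers, in the model (adjusted p = 0.12).

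Synj1, the phosphoinositide phosphatase of nerve terminals, is ENSMUSG00000022973.18 on the minus strand at chr16:90936092-91011308 (GRCm38). It had 731, 723, 748, 800 and 766 CPM (counts per megacount of the TMM-scaled library) in the 5 Dp16_2xIFNRs mice. In Dp16 mice it ran between 720 and 844 CPM with a median of 761 CPM. In WT mice it ran between 397 and 552 CPM with a median of 451 CPM. Every mouse with the duplication lay above every WT mouse, and the 2 duplication groups covered nearly the same range. The means were 754 ± 30.8 CPM in Dp16_2xIFNRs (SD, n = 5), 770 ± 43.7 CPM in Dp16 (n = 6) and 467 ± 59.0 CPM in WT (n = 6). The log2 fold change against WT was 0.69 ± 0.07 (SE) in Dp16_2xIFNRs (edgeR adjusted p = 1.44e-05) and 0.72 ± 0.07 in Dp16 (edgeR adjusted p = 3.88e-06). Between Dp16_2xIFNRs and Dp16 the log2 difference was -0.03 ± 0.07, a ratio of 0.981 with a 95% interval of 0.882 to 1.09 (edgeR adjusted p = 0.907).

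Itsn1, the scaffold that links dynamin, synaptojanin and Eps15, is ENSMUSG00000022957.20 on the plus strand at chr16:91729281-91920597. It had 239, 271, 264, 278 and 272 CPM in the 5 Dp16_2xIFNRs mice. Dp16 mice had 249 to 273 CPM with a median of 258 CPM, and WT mice had 162 to 189 CPM with a median of 183 CPM. The lowest duplication mouse, Dp16_2xIFNRs replicate 1, was still above the highest WT mouse. Means were 265 ± 15.1 CPM in Dp16_2xIFNRs (SD, n = 5), 259 ± 10.4 CPM in Dp16 (n = 6) and 180 ± 10.8 CPM in WT (n = 6). The log2 fold change against WT was 0.56 ± 0.05 (SE) in Dp16_2xIFNRs (edgeR adjusted p = 2.62e-06) and 0.53 ± 0.05 in Dp16 (edgeR adjusted p = 2.52e-06). Between Dp16_2xIFNRs and Dp16 it was 0.03 ± 0.05, a ratio of 1.02 with a 95% interval of 0.949 to 1.10 (edgeR adjusted p = 0.837). CPM ranges did not overlap between groups for 2 of 9 members in each comparison with WT, where 2.17% (Dp16_2xIFNRs) and 0.990% (Dp16) of all tested genes had separate ranges. Between Dp16_2xIFNRs and Dp16 the ranges overlapped for all 9 members, and 0.616% of tested genes had separate ranges.

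**Figure D1:**
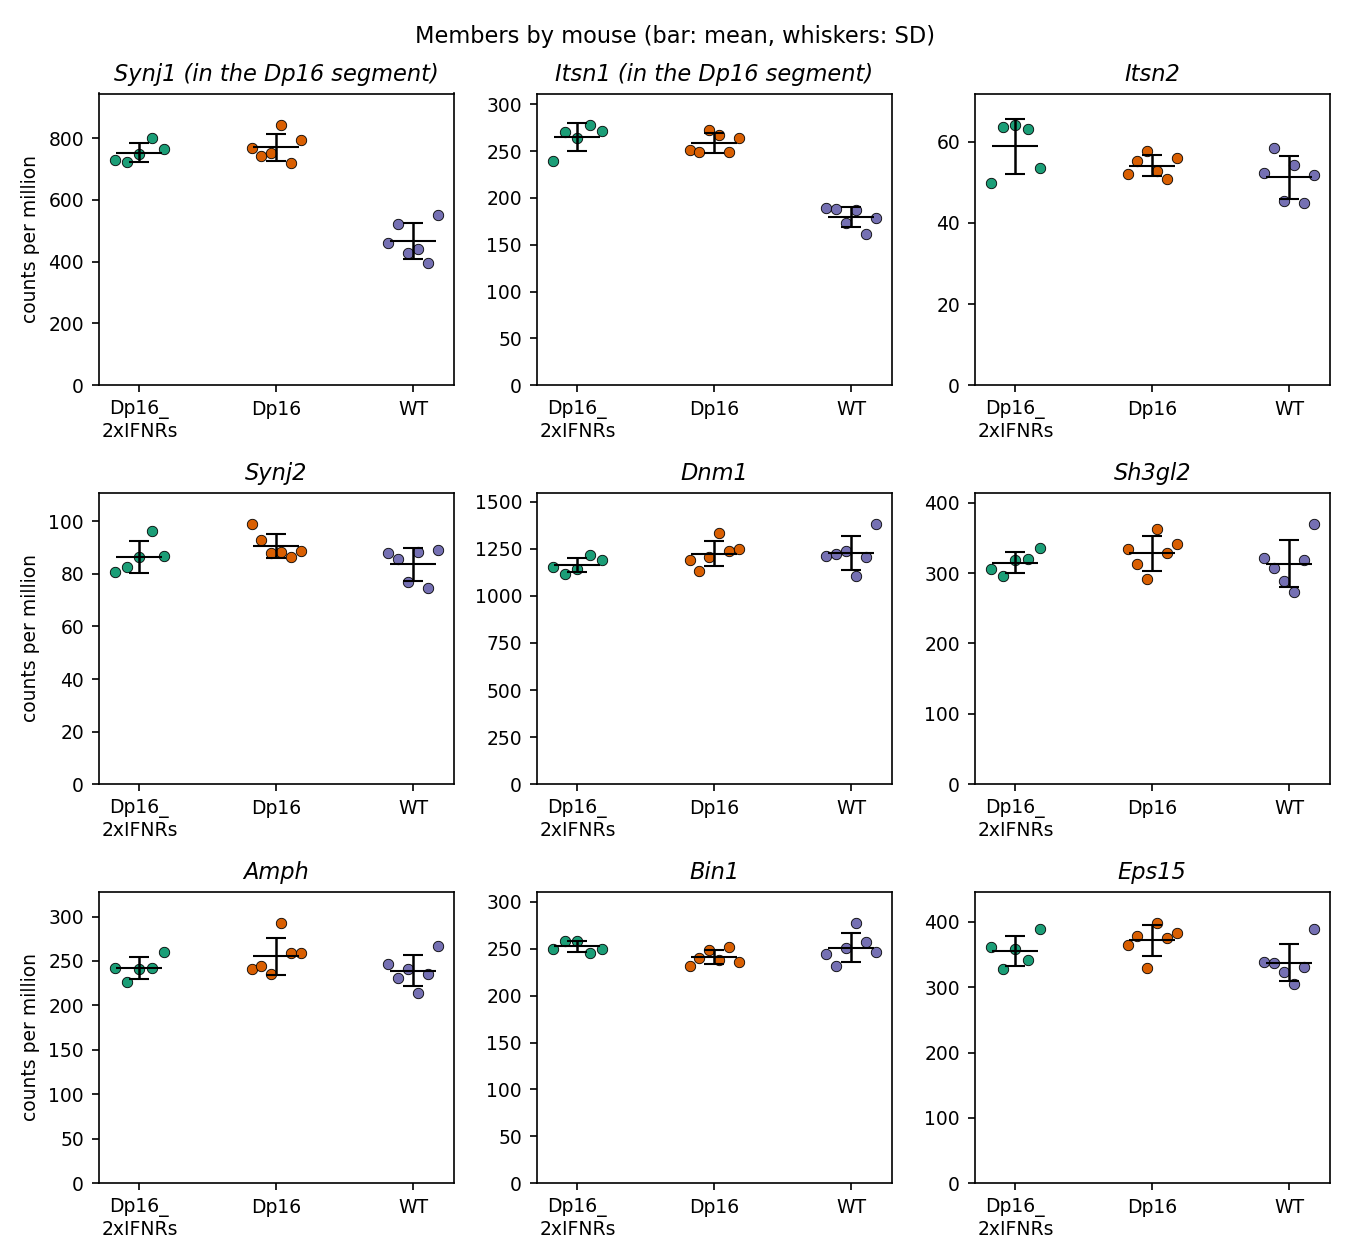
CPM of the 9 members in each mouse, 1 panel per gene with the vertical axis from 0; points are mice, bars are means and whiskers are SD, for Dp16_2xIFNRs (n = 5), Dp16 (n = 6) and WT (n = 6). The duplication mice lie above all WT mice for Synj1 (720 CPM or more against 552 CPM or less) and Itsn1 (239 CPM or more against 189 CPM or less), while the ranges of the other 7 genes overlap.

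The upstream sequences of both genes are shown because these are the members that moved with the duplication. Each runs 5′ to 3′ over the 250 bases before the RefSeq start on GRCm38.p6, at chr16:91011309-91011558 on the minus strand for Synj1 and chr16:91729121-91729370 on the plus strand for Itsn1. RefSeq lists 2 start windows for Synj1, and the outermost was taken. The Itsn1 window runs past 91729281, the gene start given above, since the RefSeq start lies further downstream. Its last part is thus inside the annotated gene. Capitals mark matches, on either strand, to the GC box GGGCGG or the CCAAT box.
Synj1: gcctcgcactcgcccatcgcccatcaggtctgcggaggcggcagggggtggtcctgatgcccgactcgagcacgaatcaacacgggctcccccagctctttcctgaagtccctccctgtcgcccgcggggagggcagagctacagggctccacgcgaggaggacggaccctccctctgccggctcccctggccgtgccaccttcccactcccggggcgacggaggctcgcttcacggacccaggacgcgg
Itsn1: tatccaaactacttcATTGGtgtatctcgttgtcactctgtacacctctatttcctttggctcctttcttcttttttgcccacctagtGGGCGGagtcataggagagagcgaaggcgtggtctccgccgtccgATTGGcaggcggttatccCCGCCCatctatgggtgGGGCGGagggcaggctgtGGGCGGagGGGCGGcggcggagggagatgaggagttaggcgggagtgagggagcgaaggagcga

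The Synj1 window had 71.2% G and C with 24 CpG pairs, and the Itsn1 window had 59.2% with 17 CpG pairs, against medians of 52.4% and 6 CpG pairs over all promoters. The Itsn1 window held 5 GC boxes and 2 CCAAT boxes, and 32.7% and 33.8% of 32851 promoter windows of that length held at least 1. The Synj1 window held 0 matches to either. Neither window matched the TATA box TATAAA (12.4% of windows), or the cyclic AMP response element TGACGTCA (1.55%), both searched on both strands. None of these motifs contains another.

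Set against the copy ratio of 1.5, Synj1 lay above it and Itsn1 below it, and neither departure passed the test. For Synj1 the log2 distance from 1.5-fold was 0.11 ± 0.07 (SE) in Dp16_2xIFNRs (edgeR adjusted p = 0.394 over the segment genes) and 0.14 ± 0.07 in Dp16 (edgeR adjusted p = 0.422). For Itsn1 it was -0.03 ± 0.05 in Dp16_2xIFNRs (edgeR adjusted p = 0.805) and -0.06 ± 0.05 in Dp16 (edgeR adjusted p = 0.587). Departures were called for 10.7% of the 122 tested segment genes in Dp16_2xIFNRs and for 1.64% in Dp16. The 122 genes include the 4 receptor genes, which are at normal dosage in Dp16_2xIFNRs but were set against 1.5-fold there too. Their log2 fold changes against WT there were -0.02 to 0.16. The share of 10.7% is thus not one of triplicated genes alone. Among the 101 segment genes averaging 1 CPM or more, Synj1 ranked 24 by log2 fold change in Dp16_2xIFNRs and 7 in Dp16, counted from the highest. Itsn1 ranked 48 and 59, close to the median segment gene, whose log2 fold changes were 0.55 and 0.56.

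The interferon receptor cluster lies between the 2 triplicated members. The gap from the end of Synj1 to the start of Itsn1 is 718 kb, with the cluster 362 kb from Synj1 and 164 kb from Itsn1. In Dp16_2xIFNRs against Dp16 the log2 difference was -0.68 for Ifngr2, -0.63 for Ifnar2, -0.56 for Il10rb and -0.49 for Ifnar1, which encode chains of the interferon and interleukin 10 receptors, and all but Il10rb were called by edgeR. Il10rb (edgeR adjusted p = 0.2775) was called by DESeq2 (adjusted p = 0.00491) and in 5 other alternatives, among them edgeR without Dp16 replicate 6 (adjusted p = 0.00593), and Ifnar2 lost its edgeR call with the identifier series in the model (adjusted p = 0.0753). Synj1 and Itsn1, on either side, had -0.03 and 0.03 in that comparison. Of the 15 other tested genes in the interval, edgeR called 7 higher in Dp16_2xIFNRs against WT and 5 higher in Dp16 against WT. In Dp16_2xIFNRs against Dp16 it called 0 of them, with an unadjusted p under 0.05 for 4. Paxbp1 had the widest log2 difference in that comparison among those called against WT, 0.47 (edgeR adjusted p = 0.438), and Paxbp1 was named after its values were seen.

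**Figure D2:**
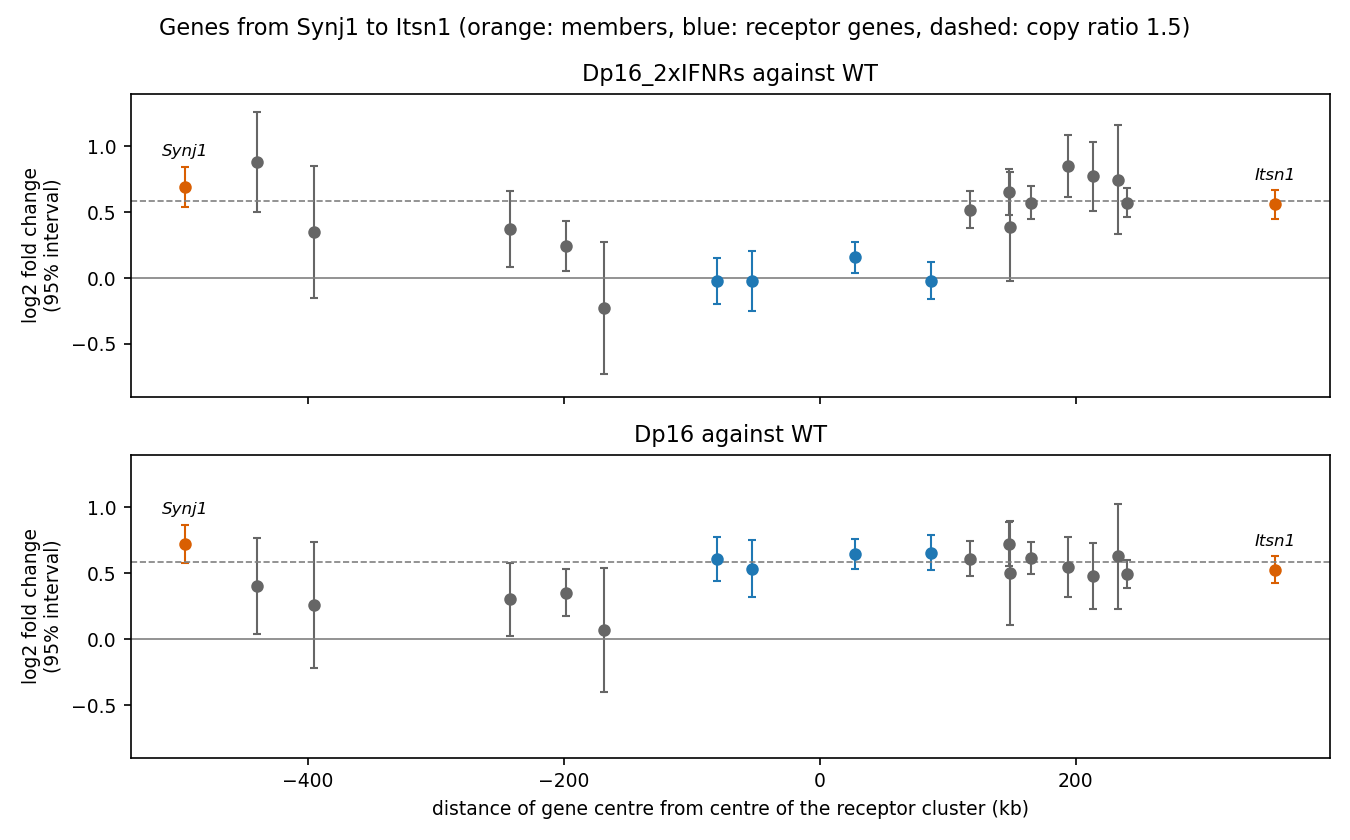
Log2 fold change against WT (points, with 95% intervals) for genes with at least 1 CPM from Synj1 to Itsn1, by distance of the gene centre from the centre of the receptor cluster in kb; upper panel Dp16_2xIFNRs, lower panel Dp16. Synj1 (0.69 and 0.72) and Itsn1 (0.56 and 0.53) stay near the dashed copy ratio in both panels, while the 4 receptor genes between them lie at -0.02 to 0.16 in the upper panel and 0.54 to 0.65 in the lower.

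Among the 7 partners edgeR called 0 in each comparison with WT, as did DESeq2 and limma-voom. Before adjustment 1 partner of 7 (14.3%) had a p under 0.05 in each of them, Itsn2 in Dp16_2xIFNRs and Eps15 in Dp16, both higher. Of all genes outside the segment, 8.01% were higher and 8.65% lower at that p in Dp16_2xIFNRs against WT. In Dp16 against WT these shares were 5.15% and 3.99%. Outside the segment edgeR called 0.636% of genes in Dp16_2xIFNRs against WT, 0.212% in Dp16 against WT and 0.00% between the duplication groups, so 0 of 7 is close to that background. Their log2 fold changes ran from -0.07 to 0.20 in Dp16_2xIFNRs against WT, with a median of 0.02, and from -0.06 to 0.14 in Dp16 against WT, with a median of 0.08. All genes outside the segment had medians of 0.00 and -0.01. No 95% interval of a partner reached the copy ratio of 1.5.

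**Figure D3:**
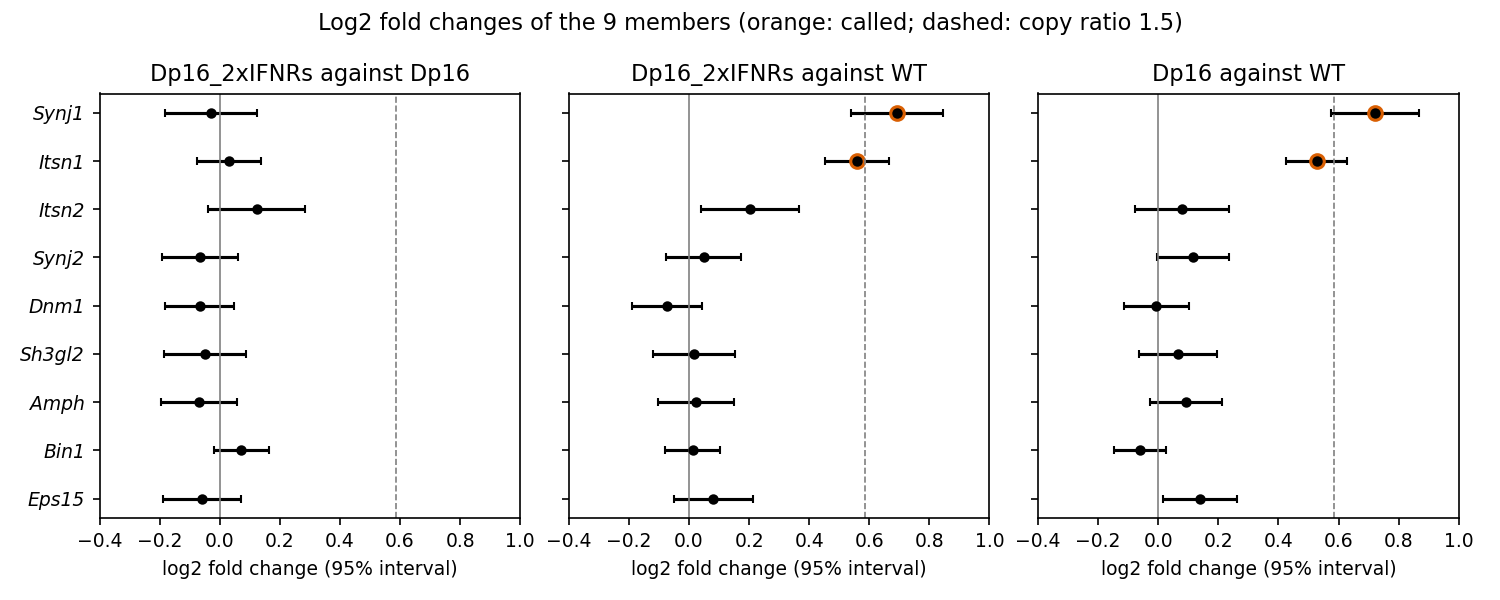
Log2 fold changes of the 9 members (points) with 95% intervals in Dp16_2xIFNRs against Dp16, Dp16_2xIFNRs against WT and Dp16 against WT; orange rings mark genes called by edgeR and the dashed line marks 1.5-fold. Synj1 and Itsn1 stand at 0.53 to 0.72 against WT and near 0 between the duplication groups, and the partners lie between -0.07 and 0.20 in all 3 panels.

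Eps15, the adaptor that binds the AP2 complex and intersectin (chr4:109280268-109387817), had 361, 328, 358, 342 and 389 CPM in Dp16_2xIFNRs mice. Its range was 330 to 399 CPM in Dp16 (median 377) and 304 to 389 CPM in WT (median 334). In 5 of 6 Dp16 mice and 4 of 5 Dp16_2xIFNRs mice it exceeded the WT mean, with overlapping ranges. The log2 fold change against WT was 0.08 ± 0.06 (SE) in Dp16_2xIFNRs (edgeR adjusted p = 0.523) and 0.14 ± 0.06 in Dp16 (edgeR adjusted p = 0.472).

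Itsn2, the second intersectin (chr12:4592638-4713962), had 49.9, 63.6, 64.2, 63.2 and 53.4 CPM in Dp16_2xIFNRs mice. Its range was 50.8 to 57.7 CPM in Dp16 (median 54.1) and 45.0 to 58.4 CPM in WT (median 52.1). The Dp16_2xIFNRs mice fell into 3 values above every Dp16 and WT mouse and 2 inside the WT range. The log2 fold change against WT was 0.20 ± 0.08 (SE) in Dp16_2xIFNRs (edgeR adjusted p = 0.199) and 0.08 ± 0.07 in Dp16 (edgeR adjusted p = 0.780). Antisense and opposite-strand genes overlap Itsn2, among them Gm48678, with 11.5% as many counts as Itsn2, and Fam228a, with 4.71% as many.

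Synj2, the second synaptojanin (chr17:5941280-6044290), had 80.6, 82.6, 86.4, 96.4 and 86.9 CPM in Dp16_2xIFNRs mice. It had 86.5 to 99.1 CPM in Dp16 (median 88.6) and 74.6 to 89.0 CPM in WT (median 86.7). All 6 Dp16 mice and 3 of 5 Dp16_2xIFNRs mice were above the WT mean, while the ranges overlapped. The log2 fold change against WT was 0.05 ± 0.06 (SE) in Dp16_2xIFNRs (edgeR adjusted p = 0.711) and 0.12 ± 0.06 in Dp16 (edgeR adjusted p = 0.532). Serac1, on the opposite strand at one end of the gene, held 18.5% as many counts.

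Dnm1, the neuronal dynamin that cuts the vesicle neck (minus strand, chr2:32308471-32353338), had 1154, 1117, 1142, 1216 and 1190 CPM in Dp16_2xIFNRs mice. It had 1131 to 1331 CPM in Dp16 (median 1222) and 1107 to 1383 CPM in WT (median 1217). All 5 Dp16_2xIFNRs mice were below the WT mean, inside the WT range. The log2 fold change against WT was -0.07 ± 0.05 (SE) in Dp16_2xIFNRs (edgeR adjusted p = 0.519) and -0.01 ± 0.05 in Dp16 (edgeR adjusted p = 0.984).

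The 3 curved-membrane proteins stayed within the spread between mice. Sh3gl2, endophilin A1 (chr4:85205126-85639195), had 305, 296, 319, 320 and 335 CPM in Dp16_2xIFNRs mice, 291 to 363 CPM in Dp16 and 273 to 370 CPM in WT. Amph, amphiphysin 1 (chr13:18948205-19150921), had 242, 226, 241, 242 and 260 CPM in Dp16_2xIFNRs mice, 236 to 293 CPM in Dp16 and 214 to 267 CPM in WT. Their log2 fold changes against WT were 0.02 for both genes in Dp16_2xIFNRs, and 0.07 for Sh3gl2 and 0.09 for Amph in Dp16 (lowest of the 4 edgeR adjusted p values 0.636). Adamtsl1, a coding gene on the same strand, overlaps Sh3gl2 over 125024 bases and held 3.6% as many counts. Bin1, amphiphysin 2 (chr18:32377230-32435737), is also made by oligodendrocytes and had 250, 259, 259, 246 and 250 CPM in Dp16_2xIFNRs mice. It had 232 to 252 CPM in Dp16 and 231 to 278 CPM in WT, and its log2 fold changes against WT were 0.01 in Dp16_2xIFNRs and -0.06 in Dp16 (lower edgeR adjusted p = 0.685). The highest WT value of Bin1, 278 CPM, was that of WT replicate 4, which also had the highest oligodendrocyte marker sum of all libraries, 7932 CPM over 8 genes. Whether the 2 are linked was not tested.

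Between Dp16_2xIFNRs and Dp16, the log2 differences of the partners ran from -0.07 for Amph, Synj2 and Dnm1 to 0.12 for Itsn2. The widest 95% interval among the partners, that of Itsn2, ran from -0.04 to 0.29. The lowest edgeR adjusted p of the 7 was 0.546, for Bin1 at 0.07.

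Within a group, several members had their highest or lowest value in the same library. WT replicate 6 had the highest WT value for 6 of 9 members (Synj1, Synj2, Dnm1, Sh3gl2, Amph and Eps15). Dp16 replicate 4 had the highest Dp16 value for 5 of 9 (Synj1, Dnm1, Sh3gl2, Amph and Eps15), and Dp16_2xIFNRs replicate 2 had the lowest value of its group for the same 5. These 2 high libraries also had the highest excitatory-neuron marker sums of their groups, 7874 CPM in Dp16 replicate 4 and 7554 CPM in WT replicate 6, and Dp16_2xIFNRs replicate 2 had the lowest of its group, 6351 CPM. WT replicate 4, lowest of all libraries in that sum (5393 CPM over 6 genes), was the lowest WT mouse for Dnm1, Sh3gl2, Amph and Eps15. Bin1 ran the other way in both low libraries, at its group's highest in Dp16_2xIFNRs replicate 2 and in WT replicate 4. In Dp16 replicate 3, Itsn1 and Itsn2 were at their highest while Sh3gl2, Amph and Eps15 were at their lowest. All 4 synaptojanin and intersectin genes were at their group's lowest in Dp16 replicate 5 and in WT replicate 5. In Dp16_2xIFNRs they were not together, with Synj1 lowest in replicate 2 and the other 3 in replicate 1, and their highest WT values lay in replicates 6 (Synj1 and Synj2), 1 (Itsn1) and 2 (Itsn2). Oligodendrocyte marker sums were the lowest of their groups in Dp16 replicate 4 (5283 CPM) and WT replicate 6 (4964 CPM). They were the highest of all libraries in WT replicate 4 (7932 CPM) and not extreme in Dp16_2xIFNRs replicate 2 (5613.5 CPM). The part of cell makeup in these patterns was not tested. Over whole groups the excitatory sums overlapped, at 6351 to 7186 CPM in Dp16_2xIFNRs, 6268 to 7874 CPM in Dp16 and 5393 to 7554 CPM in WT, with 0 of 6 markers called by edgeR in any of the 3 comparisons. Oligodendrocyte marker sums overlapped too, at 4765 to 6695 CPM in Dp16_2xIFNRs, 5283 to 7381 CPM in Dp16 and 4964 to 7932 CPM in WT. At an unadjusted p under 0.05, 1 of the 6 excitatory markers was higher in Dp16_2xIFNRs against WT and 1 in Dp16 against WT. Synj1 had the widest relative spread of the members in WT, with a coefficient of variation of 12.6%, against 4.08% in Dp16_2xIFNRs and 5.68% in Dp16.

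Levels of different genes were compared in RPKM (reads per kilobase and per megaread), the deposited unit that takes gene length into account. Which length was used is not given, and the order of the genes depends on it. By CPM, for example, Synj1 averaged 467 and Bin1 251 in WT. Dnm1 was the highest member in every group, at 244 RPKM in Dp16_2xIFNRs, 251 RPKM in Dp16 and 255 RPKM in WT. Synj1 averaged 105 ± 4.12 RPKM in Dp16_2xIFNRs (SD, n = 5), 105 ± 5.05 RPKM in Dp16 (n = 6) and 64.6 ± 7.54 RPKM in WT (n = 6). With the duplication Synj1 thus reached the level of Bin1 (105 RPKM in Dp16_2xIFNRs and 97.8 RPKM in Dp16), from which its range did not separate. Synj1 exceeded Bin1 in 2 of 5 Dp16_2xIFNRs mice and in 5 of 6 Dp16 mice. In WT it lay below Bin1 (103 RPKM) in 6 of 6 mice and within the spread of Amph (61.5 RPKM) and Eps15 (61.1 RPKM). Eps15 and Amph did not separate from each other in any group, at 64.9 and 62.7 RPKM in Dp16_2xIFNRs and 66.5 and 64.9 RPKM in Dp16. Sh3gl2 came next, at 48.5 RPKM in Dp16_2xIFNRs, 49.5 RPKM in Dp16 and 47.8 RPKM in WT, below both in every mouse.

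By RPKM, the 3 lowest members were the intersectins and Synj2. Itsn1 averaged 13.4 ± 0.860 RPKM in Dp16_2xIFNRs, 12.8 ± 0.568 RPKM in Dp16 and 9.01 ± 0.607 RPKM in WT. Synj2 averaged 11.8, 12.1 and 11.3 RPKM in these groups in the same order. In RPKM, Itsn1 exceeded Synj2 in 5 of 5 Dp16_2xIFNRs mice and in 4 of 6 Dp16 mice, with overlapping ranges. In RPKM, Synj2 exceeded Itsn1 in 6 of 6 WT mice without overlap. By CPM, Itsn1 averaged 180 and Synj2 83.7 in WT, so this order rests on the gene lengths used for RPKM. Itsn2 was lowest on average in every group, at 9.78 RPKM in Dp16_2xIFNRs, 8.81 RPKM in Dp16 and 8.44 RPKM in WT, and in WT its range overlapped that of Itsn1.

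**Figure D4:**
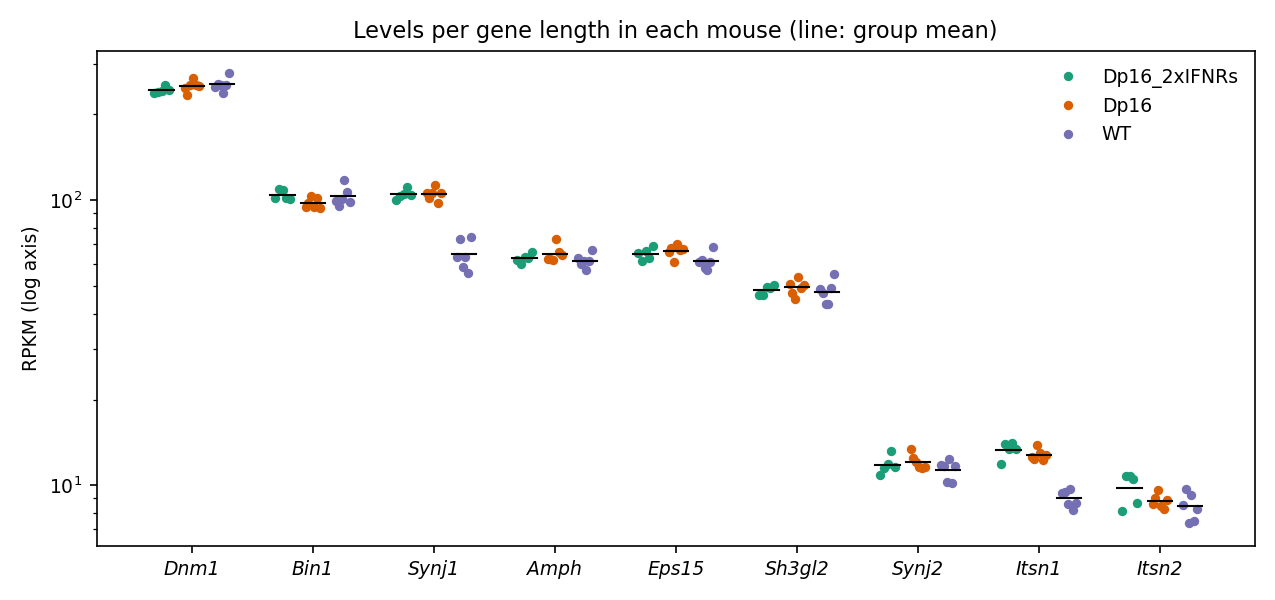
RPKM of the 9 members in each mouse on a log axis, genes ordered by WT mean; points are mice and lines are group means, for Dp16_2xIFNRs, Dp16 and WT from left to right within each gene. Synj1 averages 105 RPKM in both duplication groups and overlaps Bin1 there (105 RPKM in Dp16_2xIFNRs and 97.8 RPKM in Dp16). In WT, Synj1 (64.6 RPKM) lies at the level of Amph and Eps15. The mean of Itsn1 lies above that of Synj2 in the duplication groups, with overlapping points, and below it in WT. The order of genes depends on the gene lengths used for RPKM, which are not given.

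Only 1 gene of each paralog pair is triplicated, and the balance within both pairs differed from WT. Synj1 made up 89.9% ± 0.295 of the summed Synj1 and Synj2 RPKM in Dp16_2xIFNRs (SD, n = 5), 89.7% ± 0.697 in Dp16 (n = 6) and 85.0% ± 1.10 in WT (n = 6). The sums were 117 RPKM in Dp16_2xIFNRs, 117 RPKM in Dp16 and 75.9 RPKM in WT. The log2 ratio of Synj1 to Synj2 was 3.16 ± 0.05 in Dp16_2xIFNRs, 3.12 ± 0.11 in Dp16 and 2.51 ± 0.13 in WT, without overlap between either duplication group and WT. It was higher than in WT by 0.65 in Dp16_2xIFNRs (two-sided exact permutation p = 0.00433, adjusted p = 0.00649 over 6 tests) and by 0.61 in Dp16 (p = 0.00216, adjusted p = 0.00649, exact permutation), and these are the smallest p values the group sizes allow. Between Dp16_2xIFNRs and Dp16 it differed by 0.04 (exact permutation, adjusted p = 0.494).

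Itsn1 made up 57.9% ± 2.15 of the summed intersectin RPKM in Dp16_2xIFNRs (SD, n = 5), 59.3% ± 0.949 in Dp16 (n = 6) and 51.7% ± 1.44 in WT (n = 6). By CPM, the WT means were far from even, at 180 for Itsn1 and 51.2 for Itsn2. The share thus depends on the gene lengths used for RPKM, which are not given. The log2 ratio of Itsn1 to Itsn2 was higher than in WT by 0.36 in Dp16_2xIFNRs (two-sided exact permutation p = 0.00433, adjusted p = 0.00649) and by 0.44 in Dp16 (exact permutation p = 0.00216, adjusted p = 0.00649). Between Dp16_2xIFNRs and Dp16 it differed by -0.08 (exact permutation, adjusted p = 0.208), and by -0.13 without Dp16_2xIFNRs replicate 5 (exact permutation, adjusted p = 0.0457). That mouse had 1 of the 2 low Itsn2 values of its group, and its library was also 1 of the 3 nearly without choroid plexus markers. The other low value was that of replicate 1, whose choroid plexus marker sum was the highest of its group, 4183 CPM. Whether choroid plexus content bears on this ratio was not tested.

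**Figure D5:**
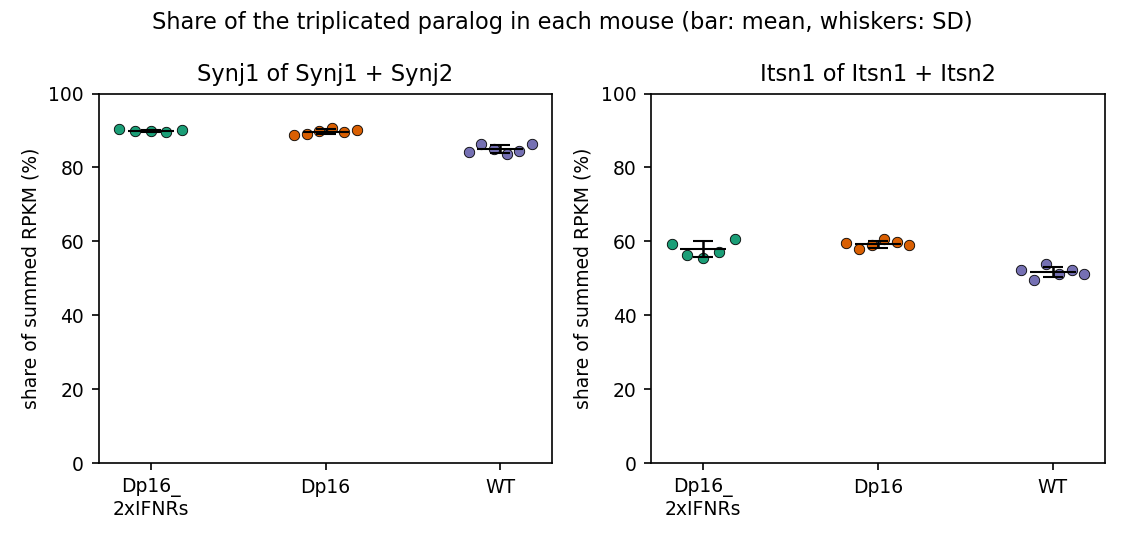
Share of the triplicated gene in the summed RPKM of its paralog pair, in percent from 0 to 100, for the synaptojanins (left) and intersectins (right); points are mice, bars are means and whiskers are SD, for Dp16_2xIFNRs, Dp16 and WT. Synj1 holds 89.9%, 89.7% and 85.0% of its pair in these groups and Itsn1 holds 57.9%, 59.3% and 51.7%. The shares depend on the gene lengths used for RPKM, which are not given.

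Both sexes showed the increase. Synj1 averaged 740 CPM in Dp16_2xIFNRs, 754 CPM in Dp16 and 471 CPM in WT females (3 each). In males it averaged 774 CPM in Dp16_2xIFNRs (n = 2), 786 CPM in Dp16 (n = 3) and 463 CPM in WT (n = 3). Itsn1 averaged 261, 258 and 184 CPM in females and 271, 260 and 176 CPM in males, in the same group order. The sex difference in the log2 fold change of Dp16 against WT (female minus male) was -0.08 for each of Synj1 and Itsn1 (edgeR adjusted p = 1.00 for both). EdgeR called 0 of 9 members for this interaction and 0.00% of all tested genes. Before adjustment 0 members had a p under 0.05, where 566 of 18983 tested genes did.

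Log2 CPM profiles over all 17 libraries were compared after subtracting each gene's WT mean. The genes closest to Synj1 were Dscam, Hspa13 and Ttc3, with root-mean-square differences of 0.09, 0.10 and 0.10. Those closest to Itsn1 were Dop1b, Cryzl1 and Gabpa, with 0.05, 0.09 and 0.09. All 6 lie in the triplicated segment, so that they share the copy-number step with the member. Itsn1 itself was rank 29 among 15615 genes in closeness to Synj1, with a difference of 0.17.

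Beyond the members, 66 other genes of clathrin-mediated endocytosis were listed, and all 66 were tested. EdgeR called 2 of them higher and 0 lower in each comparison with WT, and both lie in the triplicated segment. They are the only 2 of the 66 that do. In Dp16_2xIFNRs against WT edgeR called 0.980% of all tested genes and 54.1% of segment genes. In Dp16 against WT these shares were 0.537% and 50.8%. Dyrk1a, a kinase that phosphorylates several endocytic proteins, averaged 121 CPM in Dp16_2xIFNRs, 127 CPM in Dp16 and 84.3 CPM in WT. Its log2 fold change against WT was 0.53 in Dp16_2xIFNRs (edgeR adjusted p = 7.28e-07) and 0.59 in Dp16 (edgeR adjusted p = 1.18e-07). Rcan1, an inhibitor of calcineurin, the phosphatase that activates dynamin and synaptojanin at nerve terminals, averaged 69.3 CPM in Dp16_2xIFNRs, 75.9 CPM in Dp16 and 50.2 CPM in WT. Its log2 fold change against WT was 0.46 in Dp16_2xIFNRs (edgeR adjusted p = 0.000116) and 0.60 in Dp16 (edgeR adjusted p = 2.52e-06).

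Of the 64 listed genes outside the segment edgeR called 0 in any of the 3 comparisons, limma-voom called 0, and DESeq2 called 1 in each comparison with WT. These were Ap2a2 in Dp16 and Ston1 in Dp16_2xIFNRs, described with the coat genes and adaptors. The share of all genes that DESeq2 called is not given here to set beside this 1 of 64. At an unadjusted p under 0.05, 3 were higher and 2 lower in Dp16_2xIFNRs against WT, 4 higher and 1 lower in Dp16 against WT, and 3 higher and 4 lower in Dp16_2xIFNRs against Dp16. As shares of the 64 these were 4.69% and 3.12%, 6.25% and 1.56%, and 4.69% and 6.25%. All genes outside the segment had 8.01% higher and 8.65% lower, 5.15% and 3.99%, and 6.99% and 3.44% in these comparisons, in that order. The 64 genes had median log2 fold changes of 0.02 in both comparisons with WT and -0.02 between the duplication groups, against 0.00, -0.01 and -0.01 for all genes outside the segment. Positive values were found for 37 (57.8%), 39 (60.9%) and 26 (40.6%) of the 64 genes in Dp16_2xIFNRs against WT, Dp16 against WT and Dp16_2xIFNRs against Dp16, where 50.9%, 47.8% and 47.9% of all genes outside the segment were positive.

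Coat genes were represented by Cltc, the clathrin heavy chain, and Ap2m1, a subunit of the AP2 adaptor. Cltc averaged 622 ± 19.3 CPM in Dp16_2xIFNRs, 634 ± 23.4 CPM in Dp16 and 610 ± 46.6 CPM in WT, and Ap2m1 averaged 406, 438 and 417 CPM in the same order. In the coat list, 0 of 8 log2 differences were positive in Dp16_2xIFNRs against Dp16 (median -0.08), 4 of 8 in Dp16_2xIFNRs against WT (median -0.01) and 7 of 8 in Dp16 against WT (median 0.06), none of them called by edgeR. For the same 3 comparisons, in that order, the adaptors had 11, 15 and 12 of 18 positive (medians 0.05, 0.03 and 0.02) and the scission genes 8, 7 and 5 of 15 (medians 0.02, -0.01 and -0.01). The uncoating and lipid genes had 5, 8 and 7 of 13 positive (medians -0.01, 0.02 and 0.02), and the regulators outside the segment 2, 3 and 8 of 10 (medians -0.04, -0.02 and 0.05). Among the coat genes, Ap2a2, a subunit of AP2, had a log2 fold change of 0.18 in Dp16 against WT (edgeR adjusted p = 0.0927), which DESeq2 called (adjusted p = 0.0186), as did limma-trend on RPKM (highest adjusted p = 0.0286) and edgeR without WT replicate 6 (adjusted p = 0.0437). Ston1, a stonin adaptor, had 0.48 in Dp16_2xIFNRs against WT (edgeR adjusted p = 0.10), which was called by DESeq2 (adjusted p = 0.0297) and by edgeR with the choroid plexus level in the model (adjusted p = 0.0238). Ap2a2 and Ston1 were named after their values were seen.

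The adaptors Epn1 (epsin 1) and Snap91 (AP180) had log2 fold changes of -0.08 and 0.04 in Dp16_2xIFNRs against WT and 0.02 and 0.10 in Dp16 against WT. Pacsin1 (syndapin 1) and Fnbp1, which bind curved membrane, had 0.01 and 0.06 in Dp16_2xIFNRs against WT and 0.06 and -0.08 in Dp16 against WT. Hspa8, the chaperone that strips clathrin from vesicles, and Pip5k1c, the kinase that makes the lipid on which synaptojanin acts, had -0.09 and -0.05 in Dp16_2xIFNRs against WT and -0.04 and 0.03 in Dp16 against WT. None of these 6 genes passed the test. The calcineurin subunits Ppp3ca and Ppp3r1 had -0.01 and 0.07 in Dp16_2xIFNRs against WT and 0.01 and 0.11 in Dp16 against WT, also without a call.

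The counts sum over all transcripts of a gene. The annotation lists 8 coding transcripts of Synj1, with coding lengths up to 4821 bases, and 16 of Itsn1, up to 5157 bases, so short and long forms of these proteins were not told apart here. Itsn1 lies wholly inside an opposite-strand annotation named Atp5o (ENSMUSG00000116933.1), which had 0 counts in every library, and the genes overlapping Synj1 held at most 0.256% as many counts as Synj1.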

How the data were processed

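Polyadenylated RNA of 17 hippocampi was sequenced with a strand-specific kit, per the labels' protocols. Per the submitters' processing notes the build was GRCm38. These notes name HISAT2 2.1.0 and HTSeq 0.6.1, and further SAMtools 1.5, FastQC 0.11.5 and bcl2fastq. The authors deposited raw counts per gene. The authors also deposited RPKM of the same libraries. How strand was set in counting and which gene length underlies RPKM are not given in the sources used here, so genes that overlap others are less certain. The table names give GENCODE M24, and positions came from GENCODE M21 on the same build.

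The count test was edgeR 4.0.16 under R 4.3.3 (quasi-likelihood test, TMM scaling, filterByExpr with a minimum count of 10, genotype and sex in the model, all 17 libraries). A gene was called at a Benjamini-Hochberg adjusted p under 0.05 over 18983 genes. A prior count of 2 was added for log2 CPM. As the duplicated segment, chromosome 16 from 75540514 to 97962622 was used, with 122 tested genes. An offset in the edgeR model gave the departure from 1.5-fold, with adjustment over those 122 genes. Ratios of RPKM were compared by exact permutation tests, adjusted over 6 tests. The 9 members, the pathway list and the markers were chosen with earlier results of these data known. The text names all members, the 2 genes of each pathway sublist with the highest mean CPM, and every called pathway gene. The common coefficient of variation between mice was 14.1%, and no pair of libraries agreed within counting noise (lowest chi-square per degree of freedom 6.65). Nothing in the labels says that mice of a group share a litter or a cage, and each library was taken as 1 mouse. The second part of the mouse identifier recurs in another group for 5 pairs (mean correlation of deviations 0.0126, range -0.223 to 0.301). The mice of each pair have the same sex and equal or nearly equal ages, and whether they share a litter or a cage is not stated. The first digit of that part, here called the identifier series, takes a value that only Dp16 mice have, so series and genotype are confounded in part. The labels explain neither the recurring part nor the series. Same-numbered libraries of different groups had a mean correlation of deviations of 0.0772 (-0.217 to 0.471, 16 pairs), against -0.0141 for 80 other pairs, so the numbers were not taken to pair mice. Alternatives were DESeq2 1.42.0, limma 3.58.1 (limma-voom, and limma-trend on RPKM), other filters, scalings and covariates, a replicate block, and leaving out each library. Leaving out the 3 libraries low in choroid plexus markers was added after seeing the data.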

Additional observations from a re-analysis of the deposited data

How the results depend on the processing

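Over 34 alternatives, 906 of 918 values of the 9 members kept their direction and their side of the threshold, 12 changed direction, and 0 changed their call. The Synj1 log2 fold change ran from 0.65 to 0.74 in Dp16_2xIFNRs against WT (highest adjusted p = 0.000787) and from 0.67 to 0.78 in Dp16 against WT (highest adjusted p = 0.000122). That of Itsn1 ran from 0.52 to 0.59 (highest adjusted p = 0.000311) and from 0.47 to 0.54 (highest adjusted p = 8.75e-05). With a replicate block, which the numbers do not call for, 2, 2 and 0 members were called in Dp16_2xIFNRs against WT, Dp16 against WT and Dp16_2xIFNRs against Dp16, as without it. Under that block the paralog ratios against WT had an adjusted p of 0.0938 (exact sign-flip permutation), at 0.681 and 0.353 in Dp16_2xIFNRs and 0.612 and 0.444 in Dp16 for Synj1 to Synj2 and Itsn1 to Itsn2, since the smallest p this pairing allows is 0.0625 for 5 pairs and 0.0312 for 6. Leaving out 1 library moved the Itsn1 to Itsn2 difference between Dp16_2xIFNRs and Dp16 over -0.127 to -0.0501, with a call once, and the Itsn1 departure from 1.5-fold in Dp16_2xIFNRs over -0.0551 to 0.0068. Without the 3 libraries low in choroid plexus, Bin1 (-0.000953) and Fnbp1 (-0.00695) in Dp16_2xIFNRs against WT and Dnm1 (0.0213) in Dp16 against WT changed sign. The cause was not tested.

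Values near 0 also changed sign without a call. Ppp3ca in Dp16 against WT was -0.00266 with the choroid plexus level in the model, -0.00613 with the identifier series, and -0.00602 and -0.00601 on RPKM with 0.1 or 1 added. In Dp16_2xIFNRs against WT it was 0.00215 with the series, 0.00409 and 0.00408 on RPKM, and 0.0116 with the replicate block. In Dp16_2xIFNRs against Dp16 it was 0.00828 with the series, 0.0101 on RPKM with either constant, and 0.000143 with the block. Il10rb in Dp16_2xIFNRs against WT was 0.000222 with the choroid plexus level. Leaving out 1 library at a time gave these ranges in Dp16_2xIFNRs against WT: Amph -0.0113 to 0.0512, Bin1 -0.00899 to 0.0394, Sh3gl2 -0.0254 to 0.0606, Cltc -0.00656 to 0.0506, Pacsin1 -0.00485 to 0.023, Ppp3ca -0.0598 to 0.0265, Ifnar2 -0.061 to 0.0291, Ifngr2 -0.0636 to 0.00916 and Il10rb -0.0676 to 0.0165. In Dp16 against WT they were -0.0413 to 0.0278 for Dnm1, -0.0316 to 0.062 for Epn1, -0.00807 to 0.0599 for Pip5k1c and -0.0462 to 0.0378 for Ppp3ca, and Ppp3ca ran from -0.065 to 0.0121 between the duplication groups.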
